A study of Homo sapiens with 24 samples.

Results

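The 10 genes described here act in the making, carrying and sensing of retinoic acid, and were taken by name from the pathway around ALDH1A3: ALDH1A1, ALDH1A2, ALDH1A3, RDH10, RDH11, DHRS3, CRABP2, RARA, RARB and RARG. They were chosen with earlier results of these data known. All 10 were among the 23106 gene symbols with deposited counts, and 6 of the 10 (ALDH1A1, ALDH1A3, RDH10, RDH11, RARA and RARG) were among the 11735 genes with enough counts to test. The cells were RCC4+VHL, a clear cell renal carcinoma line with a coding mutation in the von Hippel-Lindau gene, to which the wild-type gene was restored by stable transfection. The 24 libraries formed 4 groups of 6, in which cells received DMSO or ITE in normoxia (normoxia + DMSO, normoxia + ITE) or in hypoxia (hypoxia + DMSO, hypoxia + ITE), all harvested after 6 h, with hypoxia at 0.5% oxygen, ITE at 100 nM and DMSO, the vehicle, at 0.1%. ITE is an indole ligand that activates the aryl hydrocarbon receptor (AHR), and hypoxia stabilises the alpha subunits of hypoxia-inducible factor (HIF). AHR and HIF-α share HIF-1β/ARNT as a dimerisation partner, and the design asked how activation of one pathway altered the transcriptional response to the other. In all 4 groups the serum had been treated with charcoal, which strips small lipophilic molecules, before the treatment. The line is 1 stably transfected derivative of 1 tumour line, so the libraries do not sample different tumours.

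Retinol is oxidised reversibly to retinal by retinol dehydrogenases such as RDH10, and retinal irreversibly to retinoic acid by the ALDH1A enzymes, while RDH11 and DHRS3 return retinal to retinol. CRABP2 carries retinoic acid to the nucleus, where the receptors RARA, RARB and RARG, bound to DNA with an RXR partner, switch on their targets. RARB, DHRS3 and CRABP2 are also well known as genes that retinoic acid itself induces, and kidney development is among the processes that need the pathway.

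Total counts ranged from 770094 to 93851342 over the 24 libraries, with a median of 7981992. The shallowest were hypoxia + DMSO replicates 2 and 1 and hypoxia + ITE replicate 1, and hypoxia + ITE replicate 6 deviated most from its group over all genes. Renal epithelial markers summed to between 1159 and 4108 CPM (counts divided by the library size after edgeR's TMM normalisation), with 6 of 6 tested and 0 of 6 at 0, and their highest sum was in the hypoxia + ITE group. The sum of 3 endothelial markers was between 0 and 3.31 CPM, of 3 immune markers between 5.50 and 31.4 CPM, and of 3 fibroblast markers between 18.7 and 91.6 CPM. The endothelial and fibroblast maxima were both in the normoxia + DMSO group. There COL3A1 (fibroblast, 435 counts), PECAM1 (endothelial, 22 counts) and PTPRC (immune, 6 counts) were each at 0 in 5 of 6 libraries. Their counts and CPM match the library size of replicate 4, which was kept in the main fits. The source of these counts was not tested. CYP1B1, an AHR target, was higher with ITE by 2.51 in normoxia and 2.35 in hypoxia on the log2 scale. TIPARP, another AHR target, was higher by 1.35 in normoxia and 0.67 in hypoxia, the last with an edgeR adjusted p of 0.494. That value passed without hypoxia + ITE replicate 6 (0.80, edgeR adjusted p = 0.00299) and without 4 libraries doubted after seeing the data, namely these shallowest 3 and hypoxia + ITE replicate 6 (0.62, edgeR adjusted p = 0.00202). NDRG1, a HIF target, was higher in hypoxia by 3.25 with DMSO and 2.96 with ITE. The comparisons shared groups, since each group entered a comparison of ITE and another of oxygen, so their results are given side by side and were not counted as independent.

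The sequence shown first is the 250 bases just upstream of the RefSeq start of ALDH1A3, the member whose RNA responded to ITE, at chr15:101419786-101420035 of GRCh37 on the plus strand. For contrast the same window of ALDH1A1, the most abundant member, at chr9:75567970-75568219 on the minus strand, follows it. Capitals mark GCGTG, the core of the element that AHR and ARNT bind, on either strand (CACGC when it lies on the other strand).
ALDH1A3: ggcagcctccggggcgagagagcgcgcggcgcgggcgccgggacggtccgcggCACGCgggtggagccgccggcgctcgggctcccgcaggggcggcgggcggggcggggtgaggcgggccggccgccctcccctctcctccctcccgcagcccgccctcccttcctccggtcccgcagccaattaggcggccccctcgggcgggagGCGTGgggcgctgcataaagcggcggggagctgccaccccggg
ALDH1A1: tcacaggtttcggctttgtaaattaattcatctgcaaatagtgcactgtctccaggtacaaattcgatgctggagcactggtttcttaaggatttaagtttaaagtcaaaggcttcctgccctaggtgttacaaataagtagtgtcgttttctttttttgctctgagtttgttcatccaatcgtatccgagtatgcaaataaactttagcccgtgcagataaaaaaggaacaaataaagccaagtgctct
The ALDH1A3 window held 2 copies of GCGTG, beginning at -197 on the minus strand and at -43 on the plus strand counted from the start site, and the ALDH1A1 window held 0. GCGTG is a common string, present in 32.2% of 35116 RefSeq promoters in windows of the same length, and in 50.6% of the 2147 promoters within 5 points of the GC content of ALDH1A3. The GC content was 82.4% for ALDH1A3 and 38.4% for ALDH1A1, against a median of 58% over all promoters. The longer element TNGCGTG (4.52% of all promoters) was in neither window, nor was ACGTG, the core that HIF binds, which was in 18.5% of all promoters. ACGTG and GCGTG differ in their first letter, so a plus-strand match to one is never a match to the other at the same place. The string matches describe letters in these windows only. The ALDH1A3 window lies inside an intron of a longer annotated ALDH1A3 transcript and overlaps a non-coding gene, and the strand setting of the counting was not stated. The ALDH1A1 window likewise lies inside the annotated span of its gene, from 75515587 to 75695358. Of the 10 members 9 had a promoter entry, and RDH11 was the only other of these 9 with GCGTG, in 1 copy at -16. RDH11 was not called with ITE (log2 fold change -0.03 in normoxia and 0.07 in hypoxia). The same window of TIPARP, which was higher with ITE, held 0 copies of GCGTG and 0 of TNGCGTG.

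Before any comparison, the members fell into those present at high, moderate and hardly detectable level. ALDH1A1, a cytosolic retinal dehydrogenase, was the 63rd most abundant of 23106 symbols, at 805.8 to 1904 CPM. Per kilobase of exon, the scale on which genes are compared here, its mean over the 24 libraries was 483 CPM per kb. RDH11 followed with 18.5 CPM per kb, then RDH10 with 4.37, ALDH1A3 with 3.46, RARA with 3.07 and RARG with 2.47 CPM per kb. The levels of RDH10, ALDH1A3, RARA and RARG overlapped between libraries, so their order was not resolved over all groups.

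The other 4 members were too low to test. DHRS3, a retinal reductase, had 162 counts in all 24 libraries together and was at 0 in 6 of them. ALDH1A2, a further retinal dehydrogenase, had 35 counts and was at 0 in 14 libraries, and RARB had 21 counts and was at 0 in 13. CRABP2 had 19 counts and was at 0 in 17 libraries, including 6 of 6 with hypoxia + ITE. A count of 0 allows up to 3 counts, which is 0.0294 CPM in the deepest library and 4.12 CPM in the shallowest. Such limits cover counting error only. These 4 are therefore described as not detectable above a low level at these depths, and no fold change is given for them.

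**Figure D1:**
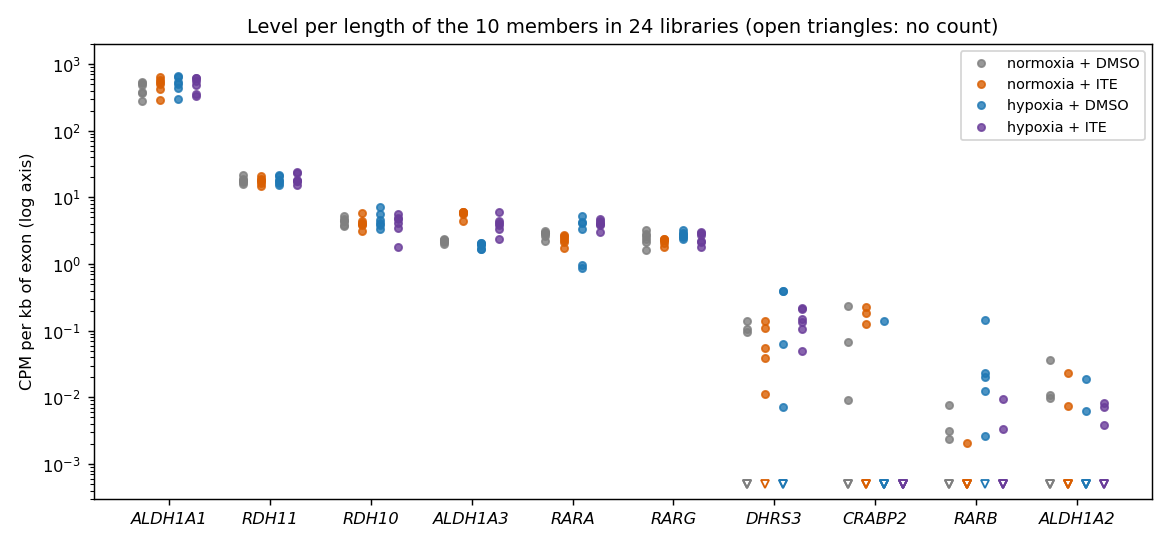
Level of the 10 members per kilobase of exon in each library, on a log axis, with colours for the 4 groups and open triangles for libraries without a count. ALDH1A1 had a mean of 483 CPM per kb and stood above the other members in every library, while DHRS3, CRABP2, RARB and ALDH1A2 lay below the tested members and had libraries at 0.

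ALDH1A3, on chromosome 15 from 101417919 to 101456831 of GRCh37, oxidises retinal to retinoic acid. Its level with normoxia + DMSO had a lowest value of 10.8, a median of 12.1 and a highest of 12.8 CPM, and with normoxia + ITE the lowest was 23.8, the median 31.5 and the highest 32.4 CPM. Every normoxia + ITE library was above every normoxia + DMSO library. The means were 11.9 ± 0.717 CPM (SD, n = 6) and 30.2 ± 3.24 CPM (SD, n = 6). The gene rose 2.52-fold (95% interval 2.04 to 3.10), a log2 fold change of 1.33 (standard error 0.15, edgeR adjusted p = 3.54e-06), and ranked 3 of 11735 genes by p. Same-numbered replicates gave ratios from 1.94 to 2.93, and the lowest of these, in replicate 5, went with the lowest ITE library.

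In hypoxia, ALDH1A3 was between 9.08 and 11.2 CPM with DMSO (median 10.5) and between 12.8 and 31.9 CPM with ITE (median 21.5). The groups again did not overlap. The means were 10.2 ± 0.947 CPM and 21.5 ± 6.38 CPM (SD, n = 6 each), so the ITE libraries varied much more among themselves in hypoxia than in normoxia. ITE raised ALDH1A3 2.06-fold in hypoxia (95% interval 1.64 to 2.58), a log2 fold change of 1.04 (standard error 0.16, edgeR adjusted p = 0.00158), and it was again 3rd of 11735 by p. Same-numbered ratios ran from 1.41 to 3.51. The ends of this range were hypoxia + ITE replicate 6, which also deviated most over all genes, at 12.8 CPM, and replicate 1, one of the shallowest libraries, at 31.9 CPM from 43 counts. Without these and the other 2 doubted hypoxia + DMSO libraries (replicates 1 and 2), an alternative chosen after seeing the data, the log2 fold change was 1.02 (edgeR adjusted p = 0.000128). Fitted to the 12 hypoxia libraries alone, it was 1.05 and did not pass the threshold (edgeR adjusted p = 0.311).

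Members called numbered 1 of 6 in normoxia, where 0.0511% of all tested genes were called, and 1 of 6 in hypoxia, where 0.0597% were. ALDH1A3 was the member in both, and also the only 1 of 6 at an unadjusted p under 0.05, against 1.46% and 9.56% of tested genes. Of all tested genes, 0.477% were higher with non-overlapping groups in normoxia and 0.153% in hypoxia. The members were chosen around ALDH1A3, already reported as an AHR target, so 1 of 6 does not test the pathway.

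For oxygen, ALDH1A3 did not pass the threshold with either DMSO or ITE. The gene was lower in 6 of 6 same-numbered pairs of hypoxia + DMSO and normoxia + DMSO, with ratios from 0.733 to 0.980, a log2 fold change of -0.23 (standard error 0.16) and an edgeR adjusted p of 0.690. With ITE in both, hypoxia gave a log2 fold change of -0.52 (standard error 0.15, 95% interval -0.82 to -0.22), a level 1.44-fold lower, in 5 of 6 pairs. Its edgeR adjusted p was 0.0541, which missed the threshold of 0.05, and the ranges overlapped, since hypoxia + ITE replicate 1 was at 31.9 CPM. The call moved with the libraries used. It passed with DESeq2 (-0.53, adjusted p = 0.00384) and without the 4 doubted libraries (-0.51, edgeR adjusted p = 0.00528), and also without normoxia + ITE replicate 5 (adjusted p = 0.0464), hypoxia + DMSO replicate 1 (0.0460), hypoxia + ITE replicate 1 (0.00900) or hypoxia + ITE replicate 4 (0.0497). The value itself stayed between -0.62 and -0.43 when any 1 of the 24 libraries was left out.

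**Figure D2:**
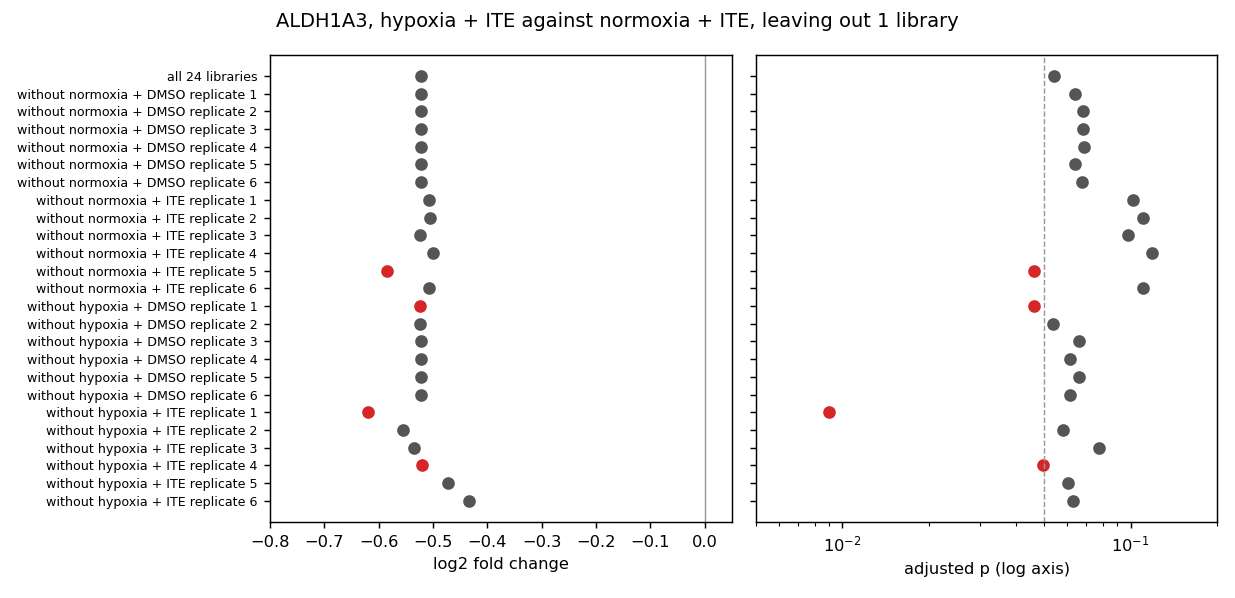
ALDH1A3, hypoxia + ITE against normoxia + ITE, with all 24 libraries and after leaving out each library in turn, as log2 fold change (left) and edgeR adjusted p on a log axis (right, dashed line at 0.05). Red marks the 4 fits that passed the threshold. The fold change stayed between -0.62 and -0.43, while the adjusted p lay close to the threshold in most fits.

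Whether ITE acted differently on ALDH1A3 in hypoxia was asked by the interaction, which is the difference between the ITE effects. It was -0.29 on the log2 scale (95% interval -0.73 to 0.15, unadjusted p = 0.186, edgeR adjusted p = 0.915), so the interval included a fold ratio from 0.603 to 1.11. Over all genes 0% were called for the interaction (0 of 11735 by edgeR, with 374, or 3.19%, at an unadjusted p under 0.05, and 0 by DESeq2, with 500). A difference in the ITE response of ALDH1A3 between the oxygen conditions was therefore not detectable with these libraries, which does not show that the responses were alike.

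ALDH1A1, on chromosome 9 from 75515587 to 75695358, was not called in any comparison by edgeR with all 24 libraries. Its level was between 805.8 and 1502 CPM with normoxia + DMSO (median 1237) and between 826.1 and 1798 CPM with normoxia + ITE (median 1480), and these ranges overlapped. With hypoxia + DMSO it was 841.6 to 1904 CPM (median 1468) and with hypoxia + ITE 940.9 to 1772 CPM (median 1484). The log2 fold change with ITE was 0.21 in normoxia (95% interval -0.20 to 0.62, edgeR adjusted p = 0.9998) and -0.05 in hypoxia (95% interval -0.46 to 0.37, edgeR adjusted p = 0.954). With hypoxia it was 0.26 with DMSO (95% interval -0.16 to 0.67, edgeR adjusted p = 0.749) and 0.00017 with ITE (95% interval -0.41 to 0.41, edgeR adjusted p = 0.9997). Both ITE in normoxia and hypoxia with DMSO were higher in 6 of 6 same-numbered pairs, and the latter was 0.042 without the 4 doubted libraries. For ITE in normoxia, ALDH1A1 passed in a fit chosen after seeing the data, which is given with the dependence on processing. Replicate 5 had the lowest ALDH1A1 level in each of the 4 groups, at 805.8 to 940.9 CPM, and replicate 5 was also the lowest normoxia + ITE library for ALDH1A3.

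Since ALDH1A1 was so abundant, ALDH1A3 made up a small share of the ALDH1A RNA. Per length, it held 0.550% ± 0.160 of the 3 ALDH1A genes with normoxia + DMSO and 1.17% ± 0.220 with normoxia + ITE (SD, n = 6 each). In hypoxia these shares were 0.403% ± 0.145 and 0.823% ± 0.231. The median ratio of ALDH1A1 to ALDH1A3 per length was 198 with normoxia + DMSO, 90.3 with normoxia + ITE, 260 with hypoxia + DMSO and 143 with hypoxia + ITE. RNA levels do not measure enzyme amount or activity.

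RDH10, the retinol dehydrogenase of the synthetic direction (chromosome 8), had medians of 23.8 CPM with normoxia + DMSO, 21.4 with normoxia + ITE, 23.4 with hypoxia + DMSO and 23.7 CPM with hypoxia + ITE. Its ranges overlapped in all comparisons. Its lowest value, 9.66 CPM, was again hypoxia + ITE replicate 6, and its highest, 37.8 CPM, was hypoxia + DMSO replicate 1. With ITE the log2 fold change was -0.08 in normoxia and -0.25 in hypoxia (edgeR adjusted p = 0.9998 and 0.687), and with hypoxia it was 0.14 with DMSO and -0.03 with ITE (edgeR adjusted p = 0.892 and 0.962).

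RDH11, a retinal reductase, was the steadiest member, with a median of 98.4 CPM with normoxia + DMSO, 98.6 with normoxia + ITE, 98.2 with hypoxia + DMSO and 99.5 CPM with hypoxia + ITE. Over the 24 libraries it stayed between 80.6 and 130.8 CPM. Its log2 fold changes were -0.03 and 0.07 with ITE in normoxia and hypoxia, and 0.02 and 0.11 with hypoxia in DMSO and ITE (edgeR adjusted p from 0.631 to 0.9998). Its 95% intervals ran from -0.28 to 0.22 with ITE in normoxia and from -0.14 to 0.37 with hypoxia in ITE.

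**Figure D3:**
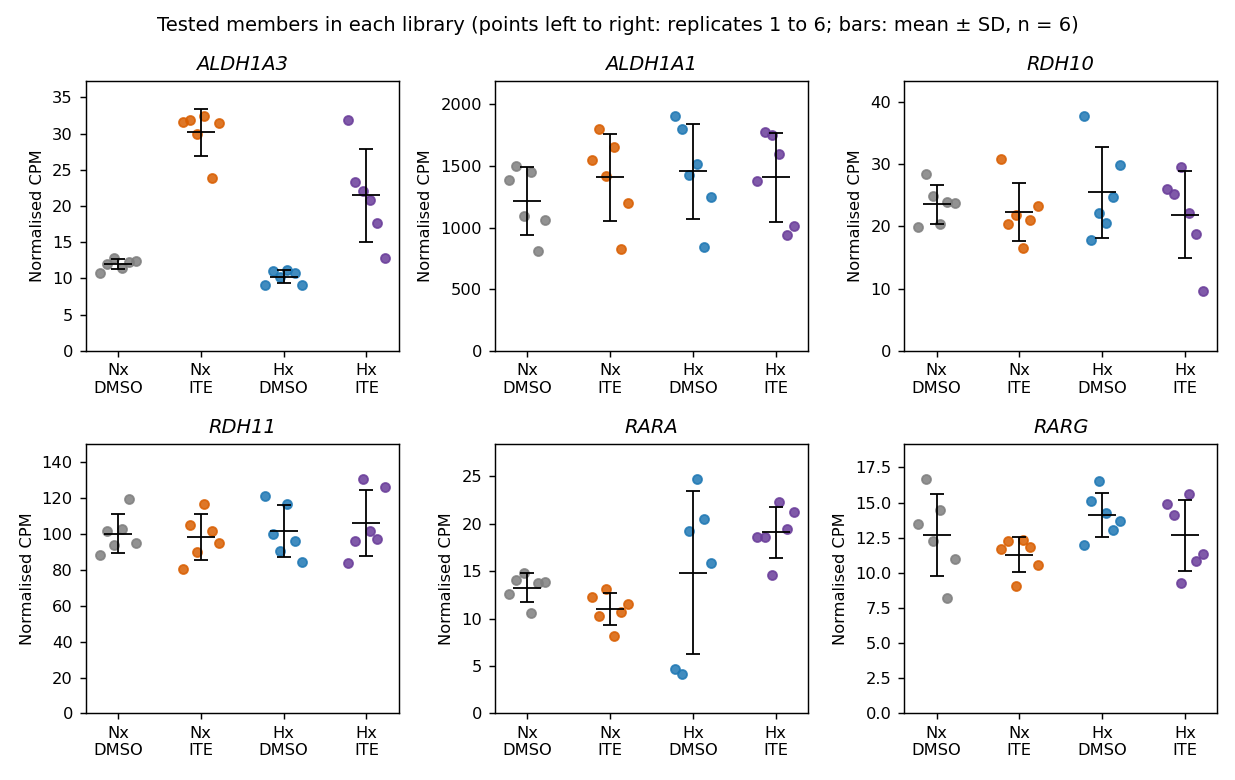
CPM of the 6 tested members in each library, with points left to right for replicates 1 to 6, and bars for mean ± SD (n = 6). ALDH1A3 stood higher with ITE in both oxygen conditions, RARA had 2 low libraries with hypoxia + DMSO, and the other members overlapped between groups.

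RARA, on chromosome 17 from 38465432 to 38513895, is the retinoic acid receptor alpha. With normoxia it was between 10.6 and 14.9 CPM with DMSO (median 13.8) and between 8.20 and 13.1 CPM with ITE (median 11.1). With hypoxia + ITE it was between 14.6 and 22.3 CPM (median 19.0), above every normoxia + ITE library, a pattern that 1.21% of all tested genes showed in the same direction. The log2 fold change for hypoxia with ITE was 0.79 (standard error 0.24, 95% interval 0.30 to 1.29), 1.73-fold higher, in 6 of 6 pairs. Its edgeR adjusted p was 0.0761, which missed the threshold. It passed with only the 12 libraries of the comparison (adjusted p = 0.0259), with DESeq2 (0.0239), without hypoxia + DMSO replicate 1 (0.0159) and without the 4 doubted libraries (0.77, adjusted p = 0.00157).

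With hypoxia + DMSO the RARA libraries split. Replicates 1 and 2 were at 4.66 CPM (21 counts) and 4.12 CPM (3 counts, the floor of the shallowest library), and the other 4 libraries were between 15.9 and 24.7 CPM, with a mean of 20.1 ± 3.67 CPM (SD, n = 4). These 4 are what is left once the 2 lowest RARA values are set aside, so their mean is no estimate for the group. Over all 6 hypoxia + DMSO libraries the mean was 14.9 ± 8.59 CPM (SD, n = 6). The log2 fold change over all libraries was 0.28 (edgeR adjusted p = 0.779), higher in 4 of 6 pairs. Without the 4 doubted libraries, which were set aside on depth and deviation over all genes and include the low replicates 1 and 2, it was 0.59 (edgeR adjusted p = 0.0213). The part of depth in the low values was not tested. RARA with ITE had log2 fold changes of -0.27 in normoxia, lower in 6 of 6 pairs, and 0.25 in hypoxia (edgeR adjusted p = 0.9998 and 0.749). The hypoxia value was higher in 3 of 6 pairs, with ratios of 3.98 and 4.52 against the low replicates 1 and 2, and turned to -0.092 without the 4 doubted libraries. The interaction was 0.51 (95% interval -0.19 to 1.21, edgeR adjusted p = 0.915) and 0.18 without the 4 doubted libraries.

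RARG, the receptor gamma, had medians of 12.9 CPM with normoxia + DMSO, 11.8 with normoxia + ITE, 14.0 with hypoxia + DMSO and 12.7 CPM with hypoxia + ITE, with overlapping ranges. Its log2 fold changes were -0.18 and -0.16 with ITE in normoxia and hypoxia, and 0.13 and 0.16 with hypoxia in DMSO and ITE (edgeR adjusted p from 0.629 to 0.9998). For 2 of these edgeR's p was larger than the standard error alone gives, because the model bounds its spread from below by counting noise. Among the 3 receptors per length, RARA made up a median of 53.4% with normoxia + DMSO, 51.3% with normoxia + ITE, 55.6% with hypoxia + DMSO and 61.7% with hypoxia + ITE, and RARG most of the rest.

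In the comparisons of oxygen, 0 of 6 tested members were called with DMSO, where 1.3% of tested genes were called by edgeR, and 0 of 6 with ITE, where 2.35% were. At an unadjusted p under 0.05, 0 of 6 members passed with DMSO and 2 of 6, ALDH1A3 and RARA, with ITE, against 9.47% and 20.1% of all tested genes. DESeq2 called 0 members with DMSO and 2, the same ALDH1A3 and RARA, with ITE. The median log2 fold change over the 6 tested members was 0.14 with DMSO and 0.06 with ITE, beside -0.0033 and 0.02 over all tested genes. For ITE it was -0.05 in normoxia and 0.01 in hypoxia, beside 0.00 and 0.02.

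**Figure D4:**
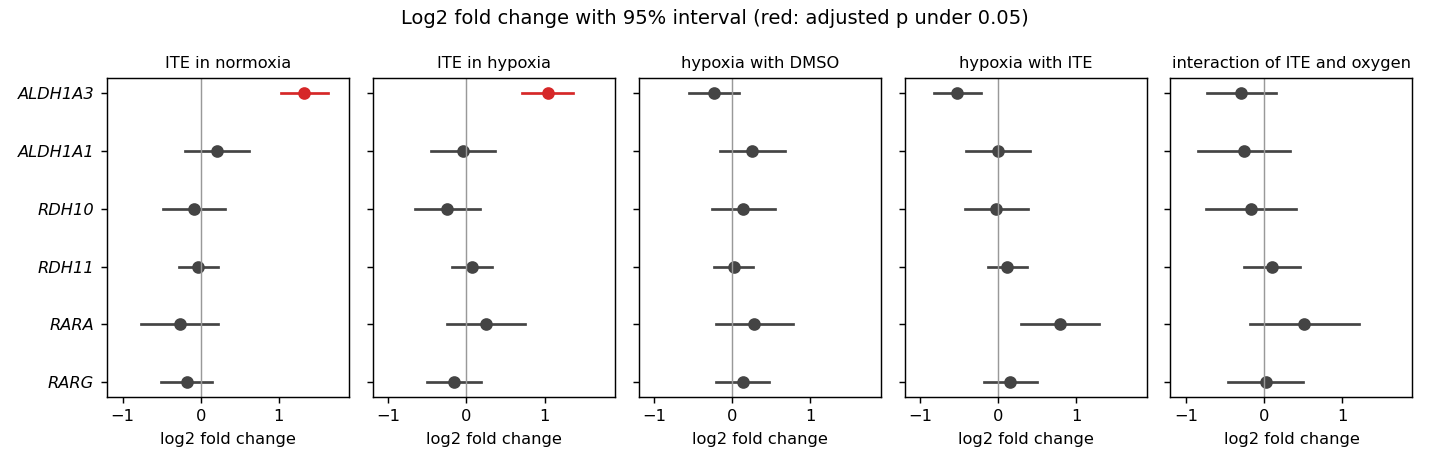
Log2 fold changes of the 6 tested members with 95% intervals in the 5 comparisons, from edgeR with all 24 libraries (red: adjusted p under 0.05). ALDH1A3 with ITE was the member that passed, at 1.33 in normoxia and 1.04 in hypoxia, and the intervals of RDH11 were among the narrowest.

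The wider pathway was taken as 6 lists of 70 genes, of which 69 were in the files and 37 were tested: retinol uptake, binding and storage, other retinol and retinal oxidoreductases, retinoic acid breakdown and other carriers, RXR partners and coregulators, retinoic acid response genes, and other aldehyde dehydrogenases. With ITE, 0 of 37 passed edgeR's test in normoxia (1 at an unadjusted p under 0.05) and 0 of 37 in hypoxia (2 unadjusted). With hypoxia and DMSO 0 of 37 passed (2 unadjusted). Of all tested genes, 0.0511% were called and 1.46% passed unadjusted with ITE in normoxia, and 0.0597% and 9.56% with ITE in hypoxia. For hypoxia with DMSO these shares were 1.3% and 9.47%. With hypoxia and ITE 1 of 37 rose and 0 fell (6 unadjusted), the 1 being DHRS4, a carbonyl reductase that reduces retinal. Over all tested genes 2.35% were called in that comparison and 20.1% passed unadjusted, so the 37 pooled genes stood near the background. The single lists differed there. Among the other retinol and retinal oxidoreductases 1 of 7 was called, DHRS4, 4 of 7 passed unadjusted, and 6 of 7 had a positive log2 fold change. The retinoic acid response genes had 2 of 7 unadjusted, and each remaining list had 0. Whether the oxidoreductase list departed from the background was not tested. Of the other aldehyde dehydrogenases, 11 were tested and 0 were called by edgeR in any of the 5 comparisons (at most 1 at an unadjusted p under 0.05). At most 2.35% of all tested genes were called in any comparison, so 0 of 11 was near the background. Their log2 fold changes for ITE in normoxia were between -0.16 and 0.22, beside 1.33 for ALDH1A3.

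DHRS4 was between 14.7 and 19.5 CPM with normoxia + ITE (median 17.2) and between 17.8 and 60.1 CPM with hypoxia + ITE (median 25.3), with overlapping ranges. Replicates 3 and 6 of hypoxia + ITE, at 40.5 and 60.1 CPM, stood above the other 4. The log2 fold change was 0.88 (standard error 0.21, edgeR adjusted p = 0.0172) in 6 of 6 pairs, and the call was lost without hypoxia + ITE replicate 3 (adjusted p = 0.0569), without normoxia + ITE replicate 6 (0.0541) and with only the 12 libraries of the comparison (0.195). DHRS4 has near-identical neighbouring copies, so its reads may be shared among them and its level is uncertain.

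The retinoic acid response genes numbered 11, with 7 tested and 0 called by edgeR in any comparison (at most 2 at an unadjusted p under 0.05, of hypoxia with ITE). At most 2.35% of all tested genes were called in any comparison, and 20.1% passed unadjusted for hypoxia with ITE. These counts were thus near the background and do not show whether retinoic acid signalling changed. The median log2 fold change over those 7 was -0.21 with ITE in normoxia and 0.14 with ITE in hypoxia, and -0.28 and 0.10 with hypoxia in DMSO and ITE. CYP26A1, which degrades retinoic acid and is strongly induced by it, is named after its values were seen: it was too low to test, at no more than 0.444 CPM in any library. Its mean was 0.0867 CPM with normoxia + DMSO, 0.0924 with normoxia + ITE, 0.155 with hypoxia + DMSO and 0.0999 CPM with hypoxia + ITE, each with an SD as large as the mean or larger.

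**Figure D5:**
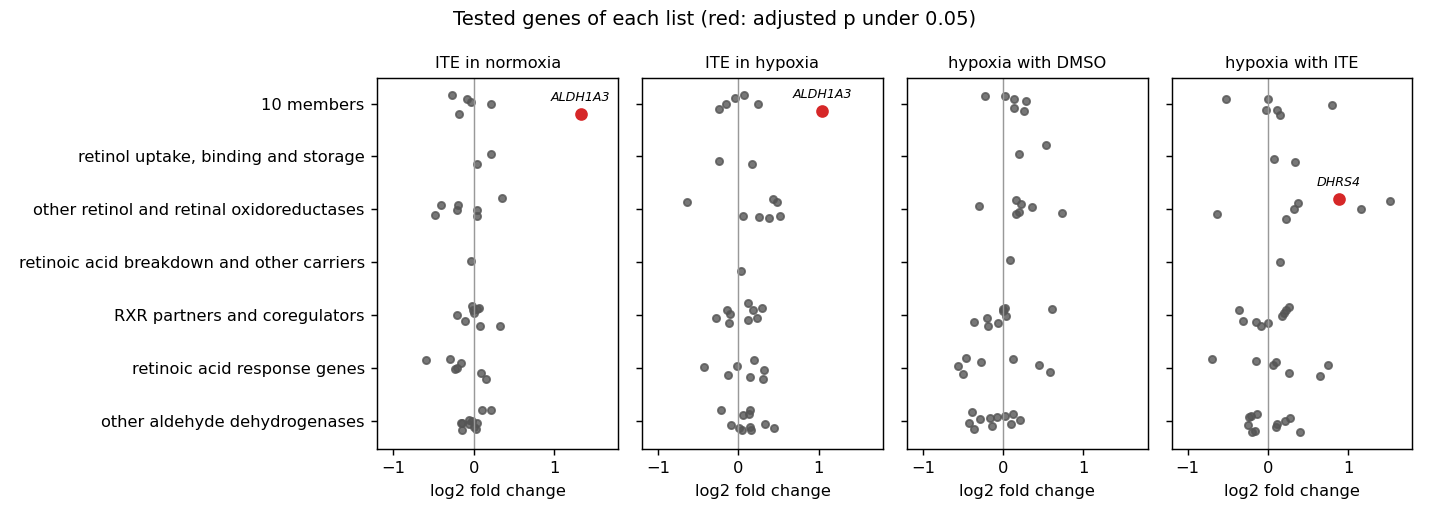
Log2 fold changes of the tested members and of the tested genes of each pathway list in the 4 comparisons of 2 groups, from edgeR (red: adjusted p under 0.05). ALDH1A3 passed with ITE in both oxygen conditions, and DHRS4 was the list gene that passed, with hypoxia and ITE.

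Over the 24 libraries, the 5 genes of 11624 whose log2 CPM was most like that of ALDH1A3 were CYP1B1 (Pearson r 0.954), TIPARP (0.915), SLC7A5, an amino acid transporter (0.890), CDK15 (0.785) and NEDD4L, a ubiquitin ligase (0.780). The points share their 4 groups, so a gene that responds to the same treatment must score high. After the group means were taken out, r was 0.672 for CYP1B1, 0.757 for TIPARP and 0.546 for NEDD4L, and 0.125 for SLC7A5 and 0.252 for CDK15. Libraries of the same group with more ALDH1A3 thus tended to have more CYP1B1, TIPARP and NEDD4L, and these libraries also differed in depth. The 5 genes were picked on a correlation that already includes this within-group part. Hypoxia + ITE replicate 6, which deviated most over all genes, also had the lowest ALDH1A3 level of its group (12.8 CPM), and its part in these values was not tested.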

How the data were processed

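PolyA RNA of RCC4+VHL cells was sequenced as 24 libraries. Per the labels and methods, the authors trimmed adaptors with Trim Galore 0.3.3, aligned reads to GRCh37 with HISAT2 (2.05 in the submitters' processing notes), used Picard 2.0.1, counted reads per gene symbol with HTSeq 0.5.4p3 and deposited raw counts, not normalised. The strand setting of the counting is not given in the sources used here, so reads of overlapping genes cannot be assigned with certainty.

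Groups and replicate numbers came from the sample labels. Nothing used here says that same-numbered replicates share a culture. The counts were filtered with edgeR 4.0.16 (filterByExpr, minimum count 10), normalised by TMM and fitted over 11735 genes with 1 mean per group by the quasi-likelihood test in R 4.3.3. Two-sided p-values were Benjamini-Hochberg adjusted over all genes, with a threshold of 0.05. Log2 CPM used a prior count of 2, while CPM used none. CPM per kb used exon-union lengths of GENCODE (GRCh37), which may differ from the gene models the authors counted. Promoters came from RefSeq and were placed on GRCh37 by exact match. The pipeline was tested on simulated data. Depth of 770094 to 93851342 counts limits the precision of low genes in the shallow libraries. The p-values measure the spread between these libraries, part of which may be technical. The authors' methods describe the 6 replicates as independent.

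Named were the 10 members, pathway list genes past the threshold, CYP1B1, TIPARP and NDRG1, and the 5 genes most correlated with ALDH1A3. The members and lists were chosen with earlier results of these data known. Alternatives were DESeq2 1.42.0, its size factors, no filter, the replicate block, only the groups compared and leaving out each library. The block with only the groups compared, and 4 doubted libraries left out, were chosen after seeing the data.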

Additional observations from a re-analysis of the deposited data

Results flagged for a closer look

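Over 56 combinations of a named gene and a group of 6 libraries, 9 had a single library that stood far from the others. Chance marks about 1 in 20 groups of continuous values, which is no guide for genes mostly at 0. ALDH1A3 in normoxia + ITE replicate 5 was at 23.8 CPM from 1201 counts, and the other 5 libraries were between 29.9 and 32.4 CPM. The other 8 were members too low to test. ALDH1A2 stood out at 0.295 CPM in normoxia + DMSO replicate 4 (8 counts), at 0.191 CPM in normoxia + ITE replicate 2 (1 count) and at 0.154 CPM in hypoxia + DMSO replicate 6 (1 count). CRABP2 did so at 0.254 CPM in normoxia + DMSO replicate 1 (2 counts) and at 0.154 CPM in hypoxia + DMSO replicate 6 (1 count). RARB did so at 0.0198 CPM in normoxia + ITE replicate 5 (1 count), at 1.37 CPM in hypoxia + DMSO replicate 2 (1 count) and at 0.0890 CPM in hypoxia + ITE replicate 4 (8 counts). These low values rest on 1 to 8 counts.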

How the results depend on the processing

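Of 918 values of members over comparisons and alternatives, 877 kept their direction and 863 also kept their side of the threshold. ALDH1A3 with ITE passed in every leave-one-out fit, from 1.31 to 1.40 in normoxia and from 0.94 to 1.13 in hypoxia. Members called moved from 1 to 2 with ITE in normoxia (compared groups with block, where ALDH1A1 passed at 0.20, edgeR adjusted p = 0.0307), from 1 to 0 with ITE in hypoxia (only the groups compared, with and without block), from 0 to 1 with hypoxia and DMSO (4 doubted libraries left out) and, with hypoxia and ITE, from 0 to 2 with DESeq2 and with the 4 libraries left out, and to 1 with only the groups compared. Leaving out 1 library gave 0 to 2. With only the groups compared, ALDH1A3 with ITE in hypoxia was 1.05, and 0.997 with the block, both short of the threshold. With hypoxia and ITE it passed at -0.53 with DESeq2 and -0.51 without the 4 libraries, with -0.62 to -0.43 on leaving out 1. Values that had not passed turned direction without the 4 libraries: ALDH1A1 0.27 and RARA -0.092 with ITE in hypoxia, RDH11 -0.054 with hypoxia and DMSO, RDH10 0.099 with hypoxia and ITE, and the interactions of ALDH1A1 (0.067), RDH10 (0.060) and CYP1B1 (0.18). Leaving out 1 library crossed 0 for RDH11 (ITE in normoxia, -0.083 to 0.028; hypoxia with DMSO, -0.041 to 0.073), ALDH1A1 (ITE in hypoxia, -0.16 to 0.046; hypoxia with ITE, -0.11 to 0.093), RDH10 (hypoxia with ITE, -0.14 to 0.11) and the interactions of RARG (-0.075 to 0.12), CYP1B1 (-0.27 to 0.0068) and CDK15 (-0.48 to 0.040). The cause was not tested.

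Genes called over all tested with ITE in normoxia were 6, against 14 with DESeq2, 13 with the block, 30 with only the groups compared, 255 with both, 24 without the 4 libraries and 13 without hypoxia + ITE replicate 6. With ITE in hypoxia they were 7, against 1 with only the groups compared, with or without the block, and 4 to 8 on leaving out 1 library. With hypoxia and DMSO they were 152, against 249, 233 and 360 with DESeq2, only the groups compared and the 4 libraries left out, 258 with the groups compared and block, and 303 without hypoxia + ITE replicate 6. With hypoxia and ITE they were 276, against 688 with DESeq2, 85 with only the groups compared, 55 with the block added to these, 516 without the 4 libraries, and 159 to 811 on leaving out 1. Same-numbered libraries did not all deviate together (correlations from -0.18 to 0.43 over pairs, with 1 to 5 of 6 libraries correlating best with their own number). The main tests therefore did not treat the numbers as pairing the samples. Counts and ratios of same-numbered pairs are given as descriptions only and are no measure of agreement between matched cultures. The agreement differed between comparisons. For ITE in normoxia the mean correlation was 0.237, with 5 of 6 best with their own number, and for ITE in hypoxia it was 0.0246, with 1 of 6. With the replicate block ALDH1A3 had 1.33 with ITE in normoxia, 1.01 in hypoxia and -0.54 with hypoxia and ITE, and the RARG interaction was -0.069. No call of a member with all 24 libraries changed with the block. Shallow libraries limit the low members, as given beside them.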
